A study of Mus musculus with 12 samples.

Results

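The cytochrome P450 enzymes were followed across the 12 liver arrays through every probe set whose platform annotation gives a single gene symbol that begins with Cyp and a digit. That rule took 47 of the 12488 probe sets, for 40 genes of 25 subfamilies, with 1 probe set for 33 genes and 2 for the other 7. A further 7 probe sets carry several P450 symbols and were left out. No measured value entered the choice. Each gene is described through its brightest probe set by the 12-array mean, with the other probe set as a check. Intensities of different probe sets depend on the probes, so levels were compared between groups of arrays and never between genes.

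The arrays measured total RNA of mouse liver taken 4 h after an intraperitoneal injection, in 6 groups of 2. Control mice, labelled albumin-cre(-) Socs3(w/fl), carried 1 floxed Socs3 allele and no Cre. They were injected with interleukin-6 (IL-6) or with phosphate-buffered saline (PBS). Socs3-deleted mice, labelled albumin-cre(+) Socs3(-/fl), received the same injections. They carried 1 Socs3 allele that is null in all cells and 1 floxed allele that Cre, driven by the albumin promoter of hepatocytes, can delete, so they differ from the controls in both alleles and in Cre. The third line, labelled Interferon-gamma-/- and called Ifng-null below, received PBS or interferon-gamma (IFN-γ). Socs3 encodes a feedback inhibitor of cytokine receptors that dampens IL-6 signalling. The labels give no strain, age, sex or dose. They do not say that replicates were separate mice, so every p-value speaks for the spread among these arrays alone.

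P450 enzymes are haem proteins that insert an oxygen atom into fatty, poorly soluble molecules. Members of the CYP1, CYP2 and CYP3 families oxidise drugs and other foreign compounds, mostly in the hepatocyte's endoplasmic reticulum. CYP4 enzymes hydroxylate the ends of fatty acids, and CYP7 and CYP8B enzymes take part in turning cholesterol into bile acids. Liver inflammation and IL-6 are known to lower the RNA of many of the drug-oxidising members.

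All values below are deposited signal intensities on a linear scale, and changes are differences of log2 intensity after values under a floor of 33.01 were raised to it. A probe set was tested where at least 2 arrays lay above the floor. Tests used limma, with a spread shared by the 6 groups and p adjusted over all 9641 tested probe sets and a threshold of 0.05. The IL-6 and PBS arrays of the control and Socs3-deleted mice enter several comparisons, as do the control PBS arrays, so the comparisons are not independent of each other. In sentences of array values replicate 1 comes first, and the PBS and IL-6 controls are the control line. Socs3 itself read 74.4 to 106 on the 4 Socs3-deleted arrays and 117 to 167 on the 4 control arrays, and its other probe set 52.6 to 68.4 and 78.8 to 113. Ifng read at most 7.81, under the floor, in every line. The array medians lay between 80.65 and 85.68. All 15 hepatocyte markers on the array were above the floor, and their summed intensity ran from 65997 to 82485. Markers of pancreatic acinar cells summed to 1789.9 to 2014 on 10 arrays, but to 9527 on replicate 2 of the control PBS group and 22815 on replicate 2 of the Socs3-deleted PBS group. Summed erythroid markers ran from 1155 to 8291. In bulk liver, fewer hepatocytes and less RNA per hepatocyte cannot be told apart.

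Of the 40 P450 genes, 37 could be tested, and 32 of these lay above the floor on all 12 arrays. The other 5 tested genes were above it on some arrays, which were 10 arrays for Cyp26a1 and Cyp1a1, 8 for Cyp2b13, and 7 for Cyp2j5 and Cyp1b1. Cyp3a16, Cyp24a1 and Cyp2j6 stayed below the floor on every array, with highest readings of 26.9, 13.4 and 11.4. Of the 7 other probe sets 3 could be tested, those of Cyp2d10, Cyp4f13 and Cyp7b1, and 0 were called in any comparison. The brightest probe sets of Cyp2c38, Cyp4a10, Cyp4b1 and Cyp7b1 carry the suffix f, and those of Cyp2d10 and Cyp21a1 the suffix s. The platform uses both suffixes for probes that related transcripts can share. Replicate arrays lay close for most members: the median SD within groups was 0.20 on the log2 scale, in a range from 0.034 to 1.24. These SDs were taken after readings under the floor were raised to it. The lowest is that of Cyp1b1, which was above the floor on only 7 arrays, so raised readings make it smaller. A limma 95% interval for an IL-6 response in control mice reached 0.40 to either side for the median gene, so shifts of that size or less could not be resolved for such a gene. The intervals of some genes were narrower and those of others wider. These intervals are not adjusted for the number of probe sets, and larger shifts also missed the adjusted threshold. An example was Cyp7b1 between genotypes after PBS, at -1.28 (limma adjusted p = 0.3). Replicates differed by more than 2-fold in at least 1 group for 6 genes, namely Cyp26a1, Cyp4a14, Cyp7a1, Cyp4a10, Cyp51 and Cyp3a11.

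After IL-6, no P450 gene passed the test in either genotype. In control mice the changes ran from -1.16 for Cyp26a1, which degrades retinoic acid, and -0.66 for the bile acid enzyme Cyp7a1 to 0.42 for the fatty acid hydroxylase Cyp4a14 and 0.45 for the drug oxidiser Cyp3a13. In the Socs3-deleted line they ran from -1.25 for Cyp7a1 to 0.89 for the bile acid enzyme Cyp7b1. Several of these extremes rest on 1 array: without replicate 1 of the control PBS group Cyp26a1 was at 0.25 and Cyp4a14 at -0.77, and without replicate 1 of the control IL-6 group Cyp7a1 was at 0.36. Leaving out 1 array turned the direction of 18 of the 37 values in control mice and 20 in the Socs3-deleted line. In control mice 0 of 37 were called, where the share called over all probe sets was 0% (limma, adjusted p). At an unadjusted limma p under 0.05 there was 1 gene, Cyp3a13, against 248 of the 9641 probe sets (2.57%). The changes were below 0 for 29 of the 37 genes, against 54.1% of all tested probe sets, with a median of -0.08 beside -0.01 over all genes. Both IL-6 arrays lay below both PBS arrays for 14 of the 37 genes (37.8%), against 14.6% of all probe sets. They lay above for 2 genes, where the background was 13%. In Socs3-deleted mice the changes were below 0 for 20 of 37 genes, against 49.3% of all probe sets, with a median of -0.04. There, 0 members were called against 1.17% of all probe sets, and 6 had an unadjusted limma p under 0.05, against 10.8%. The groups were apart and lower for 11 genes (29.7%, background 21.5%) and apart and higher for 2 (background 19.6%). Of the 15 hepatocyte markers 15 had a value below 0 for IL-6 in the Socs3-deleted line, with a median of -0.16, and 10 in controls, with a median of -0.02. Hpd, a tyrosine breakdown enzyme, was the 1 called (-0.57 in the Socs3-deleted line, limma adjusted p = 0.046), and leaving out any 1 of the 12 arrays ended that call. The part of these markers in the P450 values was not tested.

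Among the 10 comparisons, Socs3 genotype gave the only P450 call. In the mean of the 2 injections, Socs3-deleted minus control, 1 of 37 genes was called, the bile acid enzyme Cyp8b1, which was 2.18-fold lower. Cyp7a1 had the lowest value, -1.24, and Cyp3a13 the highest, 0.36, both short of the threshold (limma adjusted p = 0.315 and 0.331). Leaving out 1 array turned the direction of 11 of the 37 values, and of 17 after PBS alone and 20 after IL-6 alone. Over all probe sets 0.799% were called, and 0.187% in the lower direction. An unadjusted limma p under 0.05 was reached by 9 of the 37 (background 9.79%). Of the 37 genes 30 had a change below 0, against 56.4% of all probe sets, and their median was -0.12 beside -0.02 over all genes. All 4 Socs3-deleted arrays lay below all 4 control arrays for 2 genes, Cyp8b1 and Cyp2d10 (5.41%, background 3.14%). The opposite held for 0 genes, where the background was 1.94%. On the other, dimmer probe set of Cyp2d10 the arrays overlapped. After PBS alone the changes were below 0 for 29 of 37 genes (background 54.2%), with a median of -0.17. No gene was called there, as over all probe sets (0%), and 5 had an unadjusted limma p under 0.05 (background 4.17%). After IL-6 alone 25 of 37 were below 0 (background 54.2%), with a median of -0.12 and 0 calls against 0.954%. An unadjusted limma p under 0.05 was reached by 7 of the 37 there (background 9.09%). The groups were apart and lower for 14 genes after PBS (37.8%, background 18.4%) and for 12 after IL-6 (32.4%, background 23.2%). They were apart and higher for 2 genes in each, where the backgrounds were 15.9% and 17.9%. Of the 15 hepatocyte markers 13 were below 0 after IL-6 alone (median -0.12) and 5 after PBS alone (median 0.06), with 0 called, and their part was not tested.

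IFN-γ in Ifng-null mice gave 0 P450 calls, against 0.653% of all probe sets, and 2 genes at an unadjusted limma p under 0.05, against 6.93%. The changes ran from -0.74 for Cyp7a1 and -0.59 for the CYP3A gene Cyp3a25 to 0.68 for Cyp4a14. They were below 0 for 29 of 37 genes, against 60.8% of all probe sets, with a median of -0.17 beside -0.04 over all genes. Both IFN-γ arrays lay below both PBS arrays for 10 genes (background 17.4%) and above for 1 (background 9.8%). The direction of 14 of the 37 values turned when 1 array was left out. Of the 15 hepatocyte markers 14 were also below 0 after IFN-γ, with a median of -0.19 and 0 called, and their part was not tested. Setting the 2 genotypes' IL-6 responses against each other gave 0 calls (background 0.0415%) and 2 genes at an unadjusted limma p under 0.05 (background 3.94%). The mean IL-6 response gave 0 calls (background 1.06%) and also 2 such genes (background 9.19%). The mean of the 3 cytokine responses also gave 0 calls, against 2.24% of all probe sets, with 4 genes at an unadjusted limma p under 0.05 (background 13%) and 32 of 37 values below 0 (background 57.8%). In that mean 14 of the 15 hepatocyte markers were below 0 (median -0.15), and 2, Cps1 of the urea cycle and Hpd, were called (-0.31 and -0.30, limma adjusted p = 0.0425 and 0.0447). Each of these 2 calls ended when most single arrays were left out in turn. The PBS arrays of the Ifng-null and control lines gave 0 calls between them, as over all probe sets (0%), and 1 had an unadjusted limma p under 0.05 (background 3.08%). The changes there were below 0 for 21 of 37 members, against 52.7%.

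**Figure D1:**
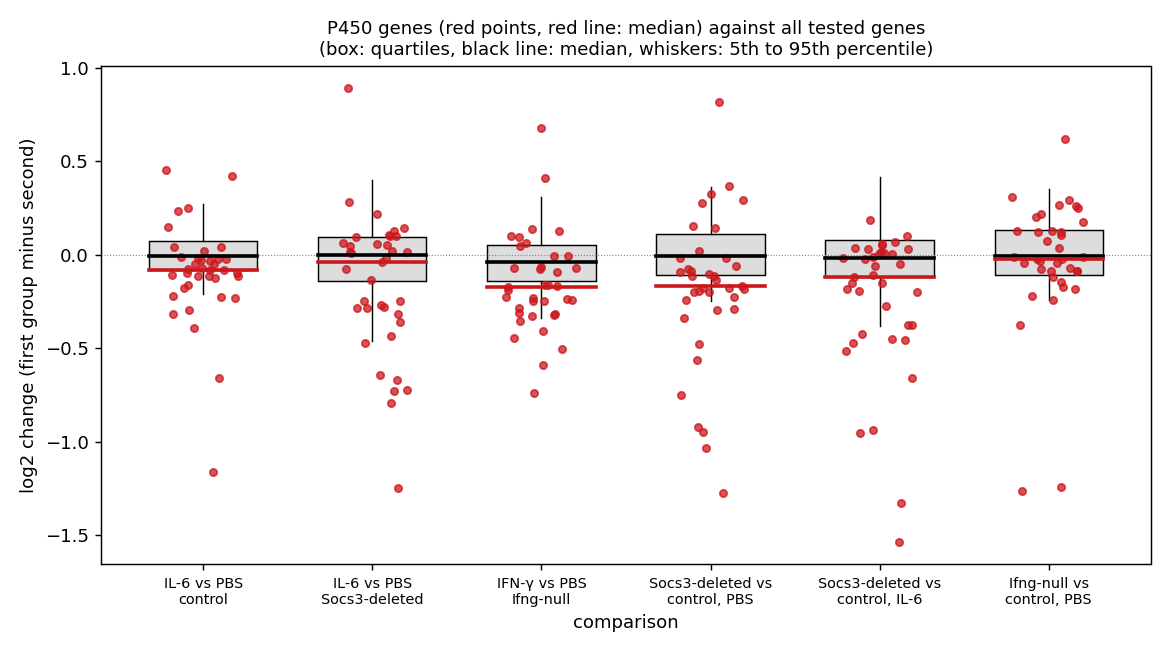
Log2 changes (y axis) in 6 comparisons (x axis) of the 37 tested P450 genes (red points, red line at their median) and of all 6976 tested genes (box from the 25th to the 75th percentile, black line at the median, whiskers to the 5th and 95th). The P450 median lies at -0.17 after IFN-γ and between Socs3-deleted and control mice after PBS, and at -0.08 and -0.04 after IL-6.

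Abundant transcripts as a whole were set beside the P450 genes. Among the 385 genes with a mean intensity of at least 1000, the median change between Socs3-deleted and control mice over both injections was -0.01, and that of the 13 P450 genes among them was -0.33, with 11 of 13 below 0. After PBS alone these medians were 0.08 and -0.22. After IFN-γ they were -0.15 and -0.28, and all 13 P450 genes had a value below 0. After IL-6 the medians were 0.01 and -0.10 for the control line and -0.11 and -0.25 for the Socs3-deleted line. These medians are descriptions, with no test.

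**Figure D2:**
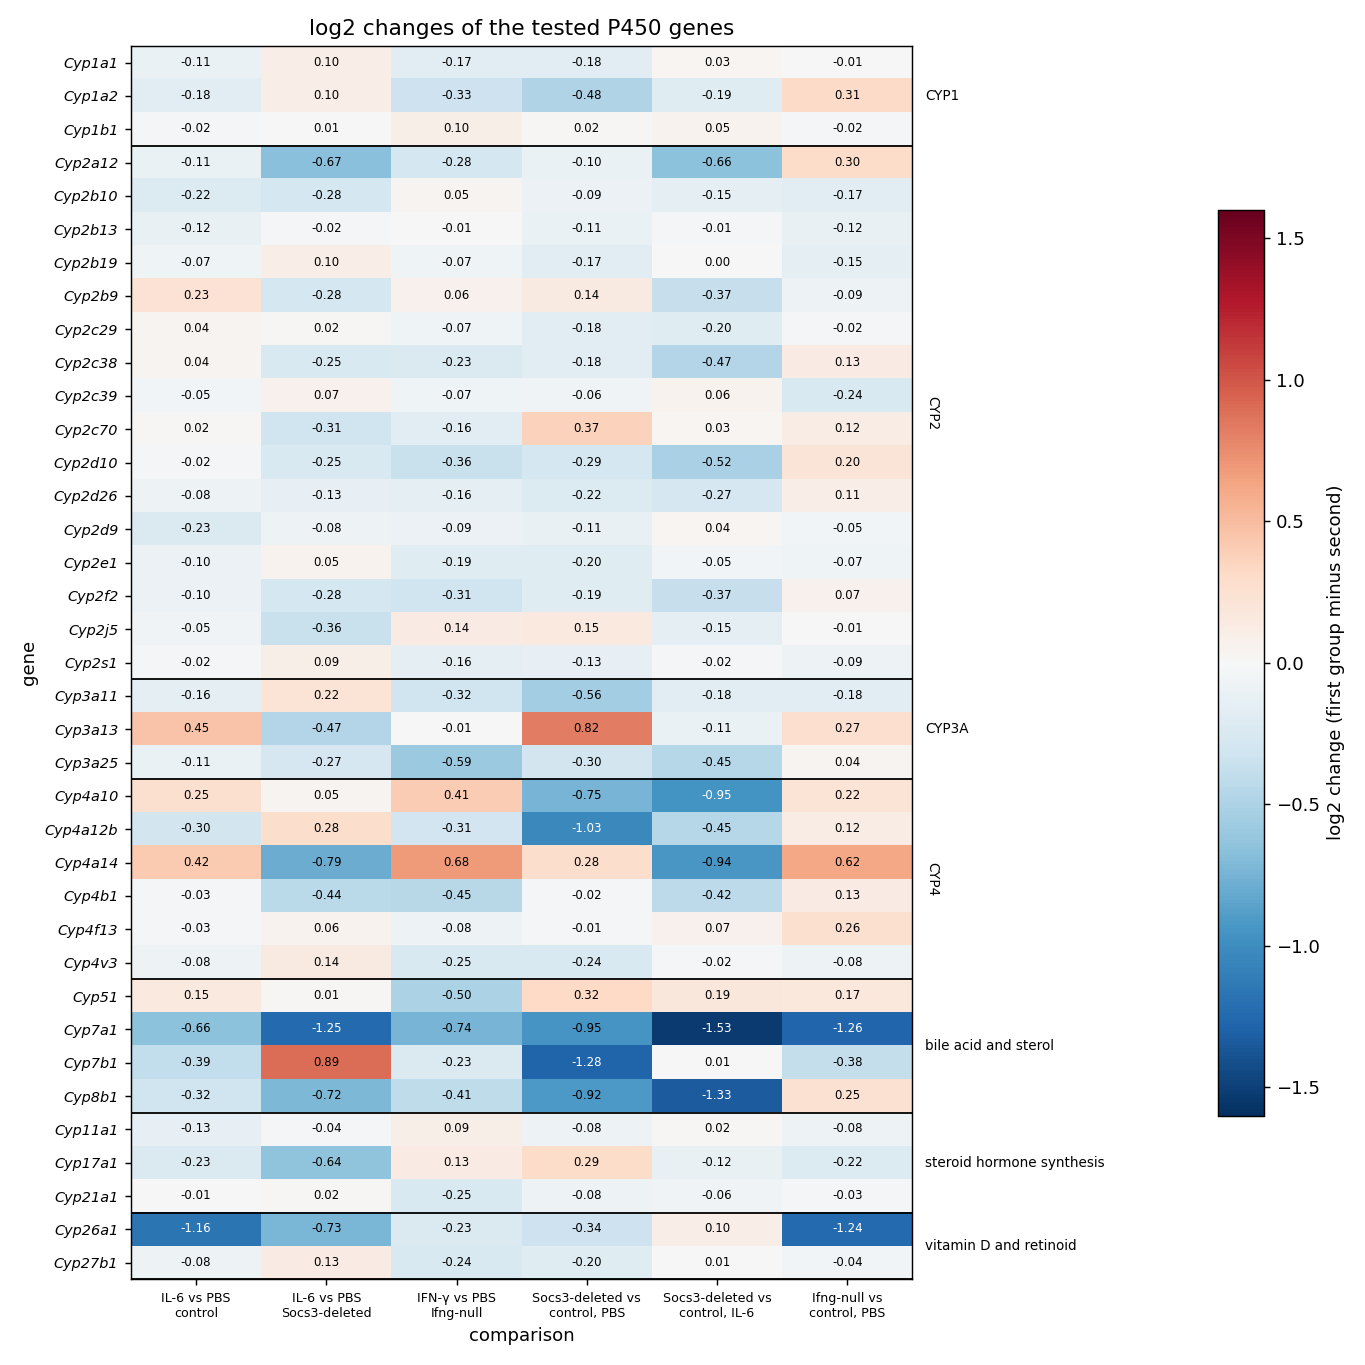
Log2 changes of the 37 tested P450 genes (rows, grouped by role) in 6 comparisons (columns), blue below 0 and red above 0, with the value written in each cell. The Socs3-deleted columns hold the values of -1.28 for Cyp7b1 and 0.82 for Cyp3a13 after PBS and of -1.33 for Cyp8b1 after IL-6.

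The bile acid and sterol group held 4 genes, all tested. It contained the 1 call and changes between Socs3-deleted and control mice after PBS from -1.28 to 0.32. Cyp8b1 encodes the sterol hydroxylase that directs bile acid synthesis towards cholic acid. Cyp8b1 read 2001 and 1465 in the PBS controls, 1329.6 and 1421 in the IL-6 controls, 799 and 1024 in the Socs3-deleted PBS pair, 507 and 591 in the Socs3-deleted IL-6 pair, 1594 and 2597 in the Ifng-null PBS pair and 1278 and 1844 in the Ifng-null IFN-γ pair. Every Socs3-deleted array was below every control and every Ifng-null array, and the Socs3-deleted IL-6 arrays were below the Socs3-deleted PBS arrays. Over both injections Cyp8b1 was 1554 ± 303 in control mice and 730.4 ± 231 in Socs3-deleted mice (SD, n = 4 each), a 2.18-fold fall (log2 change -1.12 ± 0.185 SE, limma adjusted p = 0.0347). It differed by -1.33 after IL-6 alone (limma adjusted p = 0.0566) and by -0.92 after PBS alone (limma adjusted p = 0.739). The IL-6 response was -0.32 in control mice and -0.72 in Socs3-deleted mice, and the IFN-γ response was -0.41 (limma adjusted p = 1, 0.323 and 0.94). Leaving out any 1 of the 8 control and Socs3-deleted arrays ended the call, with a limma adjusted p from 0.0626 to 0.15 and a log2 change from -1.24 to -1.01. Without both arrays with high pancreatic signal the change was -1.33, with a limma adjusted p of 0.11, and testing all probe sets with no filter gave 0.189. Without replicate 2 of the Socs3-deleted PBS group the 1 called P450 gene of this comparison was Cyp7b1 in place of Cyp8b1 (limma adjusted p = 0.0125 and 0.0658).

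Promoter sequence was at hand for Cyp8b1, the 1 called gene, and for Cyp3a13 and Cyp1a2, drug-oxidising members with unlike values between Socs3-deleted and control mice after PBS (0.82 and -0.48). Each stretch runs from 250 bases before to 50 bases after the RefSeq start, 5′ to 3′ on the gene's strand in build GRCm38.p6, with the letters of the TATAAA motif in capitals.
Cyp8b1 (chr9:121916256-121916555, minus strand): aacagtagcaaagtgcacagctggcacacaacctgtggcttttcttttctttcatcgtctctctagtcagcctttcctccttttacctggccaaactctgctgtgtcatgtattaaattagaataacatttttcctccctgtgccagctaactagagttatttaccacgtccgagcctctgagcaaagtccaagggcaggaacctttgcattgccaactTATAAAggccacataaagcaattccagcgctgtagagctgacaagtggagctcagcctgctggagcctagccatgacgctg
Cyp3a13 (chr5:137921570-137921869, minus strand): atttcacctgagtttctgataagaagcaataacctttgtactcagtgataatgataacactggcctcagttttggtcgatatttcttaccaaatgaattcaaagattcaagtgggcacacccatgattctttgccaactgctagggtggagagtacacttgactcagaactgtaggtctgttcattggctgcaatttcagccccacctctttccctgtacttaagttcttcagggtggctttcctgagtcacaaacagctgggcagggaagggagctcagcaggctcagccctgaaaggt
Cyp1a2 (chr9:57683606-57683905, minus strand): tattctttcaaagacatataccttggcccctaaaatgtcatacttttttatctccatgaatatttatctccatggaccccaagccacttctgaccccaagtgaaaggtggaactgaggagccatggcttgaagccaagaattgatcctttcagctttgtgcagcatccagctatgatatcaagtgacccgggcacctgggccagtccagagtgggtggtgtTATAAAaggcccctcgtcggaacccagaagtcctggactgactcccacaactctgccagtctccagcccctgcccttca
The Cyp8b1 and Cyp1a2 stretches hold TATAAA with its first base at -31 and -29, counted from the start, and the Cyp3a13 stretch does not hold these letters. Of the 40 genes 32 had a promoter in the table, and for 4 letter strings the shares were compared with those of all 32851 promoters of the same length. TATAAA on the gene's strand was present in 11 of 35 P450 promoters (31.4%) and in 8.32% of all. AGGTCA, the half-site of many nuclear receptors, was present on either strand in 12 of 35 (34.3%) and in 16.3% of all. TTCNNNGAA, the core of STAT factor sites, was present on either strand in 2 of 35 (5.71%) and in 8.3% of all. TTGCNNAA, which covers C/EBP sites, was present on either strand in 7 of 35 (20.0%) and in 10.8% of all. None of these last 3 strings is in the 3 stretches printed, which bears on these windows alone.

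Cyp7b1 encodes the oxysterol hydroxylase of the alternative route to bile acids. Cyp7b1 read 1192 and 1267 in the PBS controls, 948 and 924 in the IL-6 controls, 365 and 704 in the Socs3-deleted PBS pair, 989 and 894 in the Socs3-deleted IL-6 pair, 1031 and 870.2 in the Ifng-null PBS pair and 880.2 and 745 in the Ifng-null IFN-γ pair. Both Socs3-deleted PBS arrays were below all 10 others, and the Socs3-deleted IL-6 arrays lay among those of the control IL-6 and Ifng-null mice. The change between Socs3-deleted and control mice was -1.28 ± 0.25 after PBS (SE, limma adjusted p = 0.3) and 0.01 after IL-6. IL-6 against PBS gave 0.89 in Socs3-deleted mice (limma adjusted p = 0.173) and -0.39 in control mice, where both IL-6 arrays lay below both PBS arrays. The difference of these responses was 1.28 ± 0.35 (SE, limma adjusted p = 0.74). The other Cyp7b1 probe set read 792 and 741 in the PBS controls, 649 and 510.0 in the IL-6 controls, 233 and 428 in the Socs3-deleted PBS pair, 606 and 567 in the Socs3-deleted IL-6 pair, 731 and 708 in the Ifng-null PBS pair and 554 and 547 in the Ifng-null IFN-γ pair. It gave -1.28 after PBS between genotypes, 0.89 for IL-6 in Socs3-deleted mice and 1.31 for the difference of responses (limma adjusted p = 0.249, 0.144 and 0.629). No Cyp7b1 value passed the threshold with all 12 arrays. The pair of Socs3-deleted PBS arrays differed from each other, 365 against 704, and the higher one is the array with high pancreatic signal. Without that array the Socs3-deleted PBS group rests on the array at 365 alone. With 1 array left out at a time the genotype change after PBS ran from -1.75 to -0.80. The IL-6 change in Socs3-deleted mice ran from 0.42 to 1.36, and the difference of responses from 0.81 to 1.76. The genotype change over both injections ran from -0.87 to -0.40. The largest change in each of these ranges came without the array at 704.

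Cyp7a1 encodes the rate-limiting enzyme of the classical bile acid route. Cyp7a1 read 310.1 and 119 in the PBS controls, 59.9 and 246 in the IL-6 controls, 120.4 and 82.1 in the Socs3-deleted PBS pair, 41.6 and 42.2 in the Socs3-deleted IL-6 pair, 70.1 and 91.0 in the Ifng-null PBS pair and 53.8 and 42.5 in the Ifng-null IFN-γ pair. Replicates differed up to 4.10-fold, in the control IL-6 group, and the control and Socs3-deleted arrays overlapped. The 4-array means were 184 ± 115 in control and 71.6 ± 37.7 in Socs3-deleted mice (SD, n = 4 each), a log2 change of -1.24 (limma adjusted p = 0.315). Cyp7a1 was below its PBS group mean after each cytokine, with changes of -0.66 for IL-6 in controls, -1.25 for IL-6 in the Socs3-deleted line and -0.74 for IFN-γ, none past the threshold (limma adjusted p = 1, 0.534 and 1). With 1 array left out at a time the value in controls ran from -1.68 to 0.36. Cyp51 encodes lanosterol demethylase of cholesterol synthesis. Cyp51 read 151 and 134 in the PBS controls, 163 and 153 in the IL-6 controls, 111 and 286 in the Socs3-deleted PBS pair, 154 and 209.8 in the Socs3-deleted IL-6 pair, 129 and 200.3 in the Ifng-null PBS pair and 93.6 and 137 in the Ifng-null IFN-γ pair. The Socs3-deleted PBS pair differed 2.58-fold, and no Cyp51 comparison passed the threshold. The genotype change after PBS was 0.32, and -0.36 without the higher array of that pair.

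**Figure D3:**
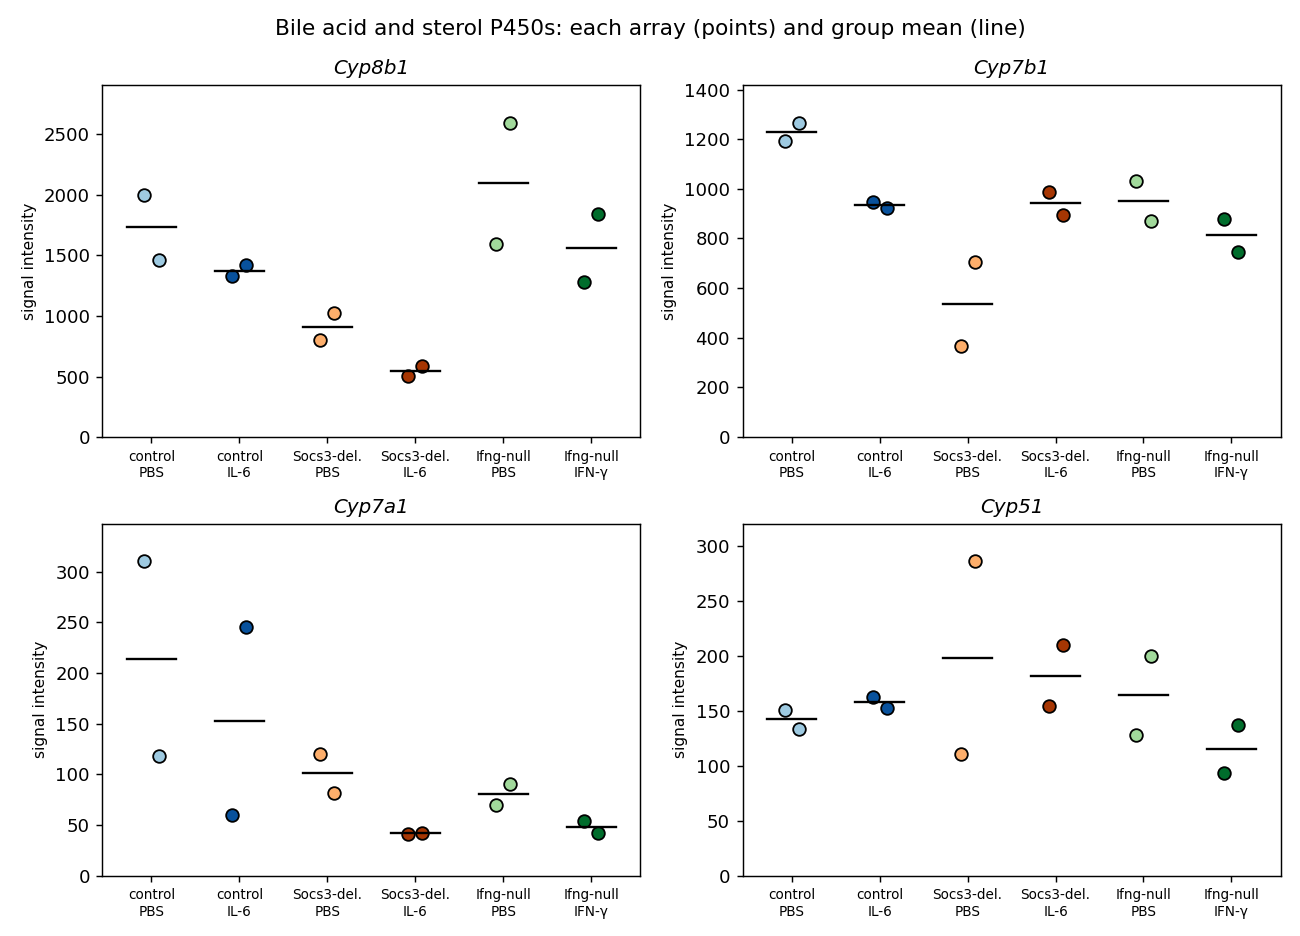
Signal intensity (y axis, linear, starting at 0) of Cyp8b1, Cyp7b1, Cyp7a1 and Cyp51 on each array (points) in the 6 groups (x axis), with the arithmetic mean of 2 arrays as a line. The 4 Socs3-deleted arrays of Cyp8b1 read 507 to 1024, below all control arrays, and the Socs3-deleted PBS arrays of Cyp7b1 are the lowest of 12.

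Of the 4 CYP3A genes 3 were tested and 0 were called in any comparison. Cyp3a11, a major drug-oxidising enzyme of mouse liver, had replicates that differed most in the Socs3-deleted PBS group. Cyp3a11 read 5223 and 4648 in the PBS controls, 4185 and 4634 in the IL-6 controls, 5276 and 2112 in the Socs3-deleted PBS pair, 3616 and 4160.1 in the Socs3-deleted IL-6 pair, 4858 and 3870.1 in the Ifng-null PBS pair and 3743 and 3219 in the Ifng-null IFN-γ pair. The low Socs3-deleted array is the one with high pancreatic signal. The genotype change after PBS was -0.56 with a limma adjusted p of 0.951, and without that array it was 0.10. The IL-6 responses were -0.16 in control and 0.22 in Socs3-deleted mice, and the IFN-γ response was -0.32, with both IFN-γ arrays below both PBS arrays. Cyp3a25 ranged from 492 to 1023 and gave -0.59 after IFN-γ (limma adjusted p = 0.777).

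Cyp3a13, a CYP3A enzyme of liver and intestine, had a positive genotype change after PBS, where 29 of 37 members had one below 0. Cyp3a13 read 976 and 712 in the PBS controls, 994 and 1309 in the IL-6 controls, 1426 and 1516 in the Socs3-deleted PBS pair, 1010.4 and 1109 in the Socs3-deleted IL-6 pair, 1034 and 971 in the Ifng-null PBS pair and 917 and 1085 in the Ifng-null IFN-γ pair. Both Socs3-deleted PBS arrays were above all 10 others. The change between genotypes after PBS was 0.82 ± 0.18 (SE, limma adjusted p = 0.352), and after IL-6 it was -0.11. IL-6 against PBS gave 0.45 in control mice, where both IL-6 arrays lay above both PBS arrays, and -0.47 in Socs3-deleted mice, where both lay below (limma adjusted p = 1 and 0.338). The difference of these responses was -0.93 ± 0.25 (SE, limma adjusted p = 0.71). The IFN-γ response was -0.01. None of these passed the threshold.

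Among the 3 CYP1 genes, all tested and 0 called, Cyp1a2 was far above the floor. It encodes the enzyme that oxidises caffeine and aromatic amines. Cyp1a2 read 2893 and 2795 in the PBS controls, 2340.2 and 2694 in the IL-6 controls, 1874 and 2226 in the Socs3-deleted PBS pair, 2417 and 1993 in the Socs3-deleted IL-6 pair, 3425 and 3612 in the Ifng-null PBS pair and 2651 and 2969 in the Ifng-null IFN-γ pair. The Ifng-null PBS arrays were the highest, and the Socs3-deleted PBS arrays were below both control PBS arrays. The control and Socs3-deleted means were 2681 ± 241 and 2128 ± 242 (SD, n = 4 each), a log2 change of -0.34 (limma adjusted p = 0.192). After IFN-γ the change was -0.33 (limma adjusted p = 0.661), and after IL-6 it was -0.18 in control and 0.10 in Socs3-deleted mice. Cyp1a1 and Cyp1b1, both inducible by aryl hydrocarbons, read 27.7 to 46.5 and 27.01 to 35.5.

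The CYP2 family was the largest, with 17 genes of which 16 were tested and 0 called. Its changes were below 0 for 12 of 16 genes for IL-6 in controls, 11 for IL-6 in the Socs3-deleted line, 13 after IFN-γ and 14 between genotypes over both injections, with medians of -0.06, -0.19, -0.13 and -0.12. Cyp2d10, a member of the CYP2D group of drug and steroid oxidisers, was lower on all 4 Socs3-deleted arrays than on all 4 control arrays. Cyp2d10 read 6561 and 6449 in the PBS controls, 5991 and 6882 in the IL-6 controls, 5342 and 5320.0 in the Socs3-deleted PBS pair, 3565 and 5649 in the Socs3-deleted IL-6 pair, 7349 and 7623 in the Ifng-null PBS pair and 5085 and 6733 in the Ifng-null IFN-γ pair. The 4-array means were 6471 ± 369 and 4969 ± 948 (SD, n = 4 each), a log2 change of -0.40 (limma adjusted p = 0.345). Its other probe set gave -0.29 (limma adjusted p = 0.229). There the arrays overlapped, with 2170 on replicate 2 of the Socs3-deleted PBS group and 2099 on replicate 2 of the control PBS group. Cyp2a12 encodes a steroid hydroxylase. Cyp2a12 read 2079.9 and 1914 in the PBS controls, 1713 and 1989 in the IL-6 controls, 1638 and 2112 in the Socs3-deleted PBS pair, 849 and 1614 in the Socs3-deleted IL-6 pair, 2219 and 2702 in the Ifng-null PBS pair and 1738 and 2329 in the Ifng-null IFN-γ pair. Replicate 1 of the Socs3-deleted IL-6 group was well below the other 11 arrays, and the IL-6 change in that genotype was -0.67 (limma adjusted p = 0.411).

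The other CYP2 genes had log2 changes between genotypes after IL-6 from -0.47 to 0.06. Cyp2e1 encodes the enzyme that oxidises ethanol and acetaminophen. Cyp2e1 read 9467 and 9412 in the PBS controls, 8522 and 9147 in the IL-6 controls, 7809 and 8669.6 in the Socs3-deleted PBS pair, 8820.1 and 8279 in the Socs3-deleted IL-6 pair, 9157 and 8827 in the Ifng-null PBS pair and 7910.0 and 7856 in the Ifng-null IFN-γ pair. The highest array was 1.21-fold above the lowest, and the IL-6 changes were -0.10 and 0.05 in the 2 genotypes. Cyp2f2 encodes the enzyme that activates naphthalene. Cyp2f2 read 2931 and 2486 in the PBS controls, 2377 and 2673 in the IL-6 controls, 2469.8 and 2264 in the Socs3-deleted PBS pair, 1700.5 and 2223 in the Socs3-deleted IL-6 pair, 2660.3 and 3038 in the Ifng-null PBS pair and 2103 and 2485 in the Ifng-null IFN-γ pair. Its IFN-γ change was -0.31 and its genotype change after IL-6 -0.37 (limma adjusted p = 0.792 and 0.51). Cyp2c38 encodes an arachidonic acid oxygenase. Cyp2c38 read 1678 and 1733 in the PBS controls, 1483 and 2071 in the IL-6 controls, 1460.3 and 1546 in the Socs3-deleted PBS pair, 1196 and 1336 in the Socs3-deleted IL-6 pair, 1551 and 2244 in the Ifng-null PBS pair and 1406 and 1789 in the Ifng-null IFN-γ pair. The genotype change after IL-6 was -0.47 (limma adjusted p = 0.536), with both Socs3-deleted arrays below both control arrays.

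Cyp2b10 encodes the enzyme known for its induction by phenobarbital through the receptor CAR. Cyp2b10 read 227 and 173 in the PBS controls, 149 and 195 in the IL-6 controls, 223 and 155 in the Socs3-deleted PBS pair, 169 and 139 in the Socs3-deleted IL-6 pair, 182 and 170.4 in the Ifng-null PBS pair and 159 and 208 in the Ifng-null IFN-γ pair. The groups overlapped in every comparison of Socs3-deleted with control mice. Cyp2s1 encodes an enzyme mainly of epithelial tissues. Cyp2s1 read 77.8 and 77.0 in the PBS controls, 75.3 and 77.0 in the IL-6 controls, 76.5 and 64.9 in the Socs3-deleted PBS pair, 77.4 and 73.1 in the Socs3-deleted IL-6 pair, 78.2 and 67.9 in the Ifng-null PBS pair and 72.6 and 58.5 in the Ifng-null IFN-γ pair. Its groups had log2 changes from -0.16 to 0.09 in the 6 pairwise comparisons. Of the other CYP2 genes, Cyp2d26 read 2799 to 4163, Cyp2c70 1227 to 2313, Cyp2d9 373 to 498, Cyp2c29 195 to 280.4 and Cyp2c39 169 to 248. Cyp2b19, Cyp2b9, Cyp2b13 and Cyp2j5 read 57.2 to 75.9, 34.1 to 68.2, 31.1 to 38.6 and 25.3 to 52.2, which is near the floor. Cyp2d26 had a genotype change of -0.25 over both injections (limma adjusted p = 0.331), and Cyp2c70 one of 0.37 after PBS (limma adjusted p = 0.951).

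**Figure D4:**
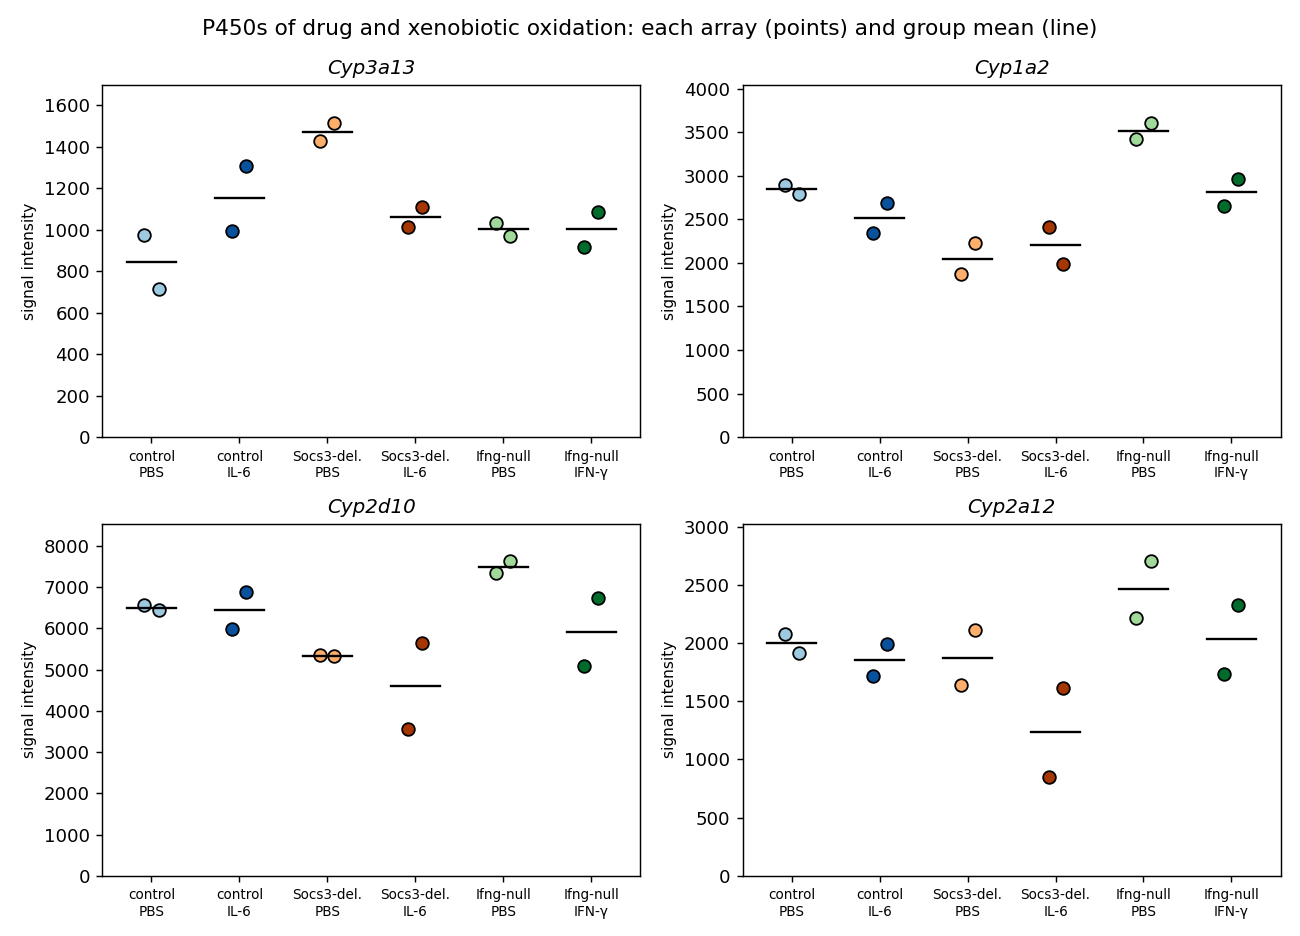
Signal intensity (y axis, linear, starting at 0) of Cyp3a13, Cyp1a2, Cyp2d10 and Cyp2a12 on each array (points) in the 6 groups (x axis), with the arithmetic mean of 2 arrays as a line. The Socs3-deleted PBS arrays of Cyp3a13 read 1426 and 1516, above the other 10.

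All 6 CYP4 genes were tested and 0 were called. Replicates of Cyp4a10 and Cyp4a14 differed widely. Cyp4a10 and Cyp4a14 encode fatty acid hydroxylases that the receptor PPARα is known to induce. Cyp4a10 read 164 and 574 in the PBS controls, 196 and 676 in the IL-6 controls, 186 and 179 in the Socs3-deleted PBS pair, 108 and 329 in the Socs3-deleted IL-6 pair, 263 and 482 in the Ifng-null PBS pair and 422 and 532 in the Ifng-null IFN-γ pair. Cyp4a14 read 60.6 and 315 in the PBS controls, 96.9 and 354 in the IL-6 controls, 264 and 106 in the Socs3-deleted PBS pair, 49.2 and 190.1 in the Socs3-deleted IL-6 pair, 146 and 309 in the Ifng-null PBS pair and 272 and 425 in the Ifng-null IFN-γ pair. Replicates differed by up to 3.51-fold for Cyp4a10 and 5.20-fold for Cyp4a14, both in the control PBS group. In 6 of 6 groups the array with the higher Cyp4a10 also had the higher Cyp4a14. The Cyp4a10 probe set has the suffix f, so the readings of Cyp4a10 and Cyp4a14 may not be independent. The IFN-γ changes were 0.41 and 0.68, and the genotype changes after IL-6 -0.95 and -0.94, with a limma adjusted p of 1, 1, 0.917 and 0.999. Without replicate 1 of the Ifng-null PBS group the Cyp4a10 value for IFN-γ was -0.03, and without replicate 1 of the Socs3-deleted IL-6 group the Cyp4a14 genotype value was 0.04. Ppara itself, the gene of that receptor, read 424 and 95.4 on the Socs3-deleted IL-6 arrays, where Cyp4a10 read 108 and 329. Without replicate 1 of that group the IL-6 change of Ppara in the Socs3-deleted line was -2.09. Only this pair of Ppara readings is given. Ppara was named after its values were seen, and its part in the CYP4 values was not tested.

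**Figure D5:**
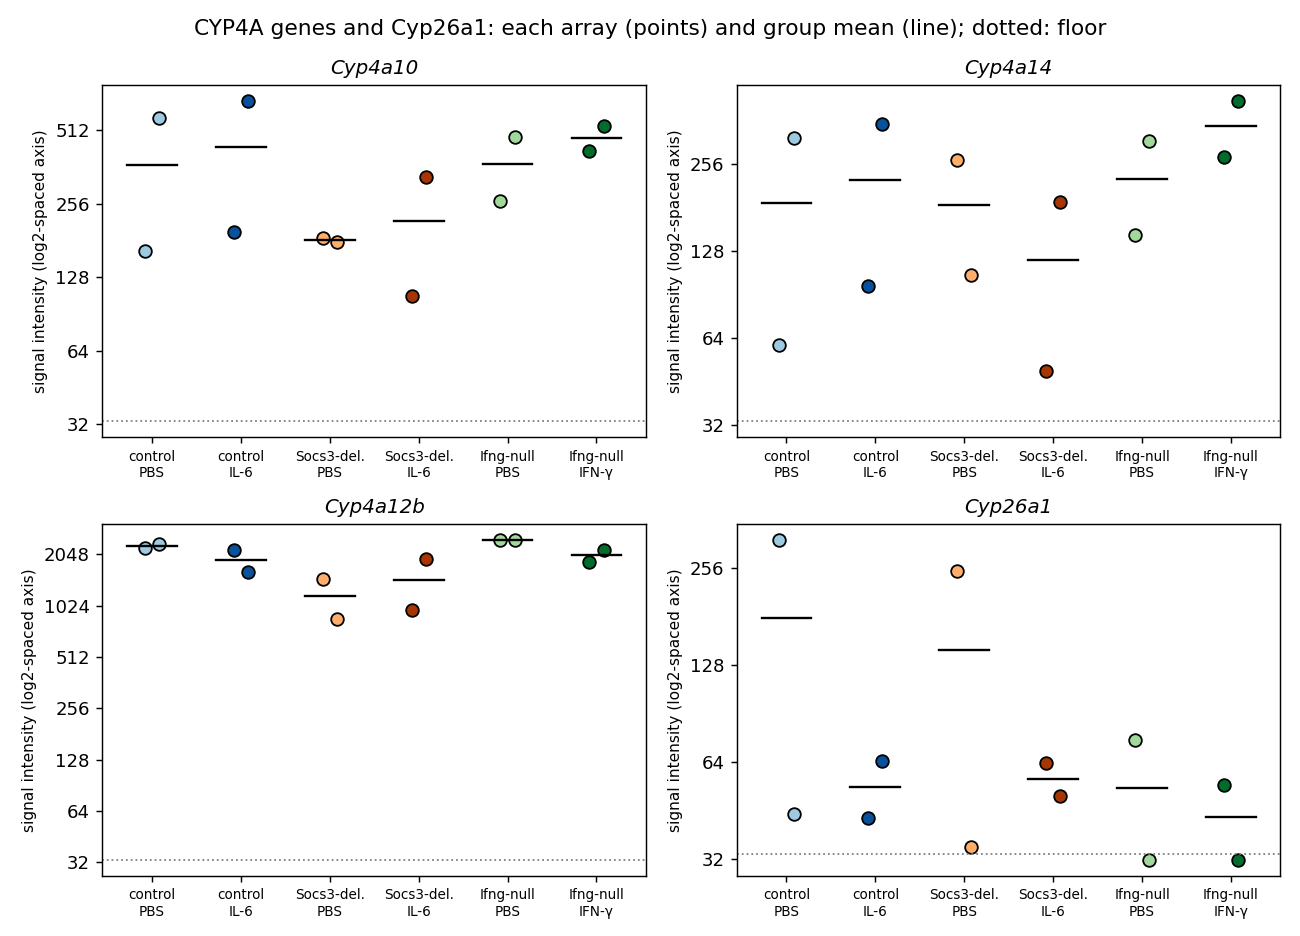
Signal intensity (y axis, log2-spaced) of Cyp4a10, Cyp4a14, Cyp4a12b and Cyp26a1 on each array (points) in the 6 groups (x axis), with the arithmetic mean of 2 arrays as a line and the floor of 33.01 dotted. The Cyp4a14 arrays of the control PBS group read 60.6 and 315, and Cyp26a1 lay below the floor on 2 Ifng-null arrays.

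Cyp4a12b encodes a male-biased hydroxylase of arachidonic acid. Cyp4a12b read 2238 and 2357 in the PBS controls, 2179 and 1606 in the IL-6 controls, 1463 and 861 in the Socs3-deleted PBS pair, 969 and 1928 in the Socs3-deleted IL-6 pair, 2500.4 and 2499.9 in the Ifng-null PBS pair and 1858 and 2187 in the Ifng-null IFN-γ pair. Both Socs3-deleted PBS arrays were below both control PBS arrays, a change of -1.03 ± 0.32 (SE, limma adjusted p = 0.904), and after IL-6 the groups overlapped. Cyp4b1, which activates furan toxins, gave -0.45 after IFN-γ and -0.44 for IL-6 in the Socs3-deleted line (limma adjusted p = 0.586 and 0.366). Cyp4b1 read 333 and 276 in the PBS controls, 259 and 339 in the IL-6 controls, 331 and 270.2 in the Socs3-deleted PBS pair, 237 and 206 in the Socs3-deleted IL-6 pair, 317 and 346 in the Ifng-null PBS pair and 226 and 261 in the Ifng-null IFN-γ pair. In both of these comparisons the cytokine arrays lay below the PBS arrays. Cyp4v3 encodes a fatty acid hydroxylase. Cyp4v3 read 2638 and 2931 in the PBS controls, 2470.0 and 2791 in the IL-6 controls, 2445 and 2255 in the Socs3-deleted PBS pair, 2773 and 2418 in the Socs3-deleted IL-6 pair, 2731 and 2520.1 in the Ifng-null PBS pair and 2391 and 2038 in the Ifng-null IFN-γ pair. Its changes in the 6 pairwise comparisons ran from -0.25 after IFN-γ to 0.14 after IL-6 in the Socs3-deleted line. Cyp4f13 is a CYP4F member. Cyp4f13 read 299.7 and 266 in the PBS controls, 265 and 289 in the IL-6 controls, 291 and 269 in the Socs3-deleted PBS pair, 331 and 255 in the Socs3-deleted IL-6 pair, 308 and 370.2 in the Ifng-null PBS pair and 322 and 319.6 in the Ifng-null IFN-γ pair. Its highest change, 0.26, was that between the Ifng-null and control PBS arrays (limma adjusted p = 0.873). Among 7 tested sex-biased liver genes outside the P450 family 0 were called. Their genotype changes over both injections were below 0 for 6 of 7, with a median of -0.10, and the 2 brightest, the urinary and secreted protein genes Mup3 and Serpina1e, had -0.12 and -0.04. The male-biased Hsd3b5, picked after its values were seen, read from 175 to 1715 and had the lowest, -1.34 (limma adjusted p = 0.262). The part of these genes in the values of Cyp4a12b and the male-biased Cyp7b1 was not tested. Xist stayed below the floor on all arrays, with a highest reading of 12.9.

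The 3 steroid hormone genes, which are known mainly from adrenal and gonads, were all tested, with 0 called. Cyp17a1 encodes the hydroxylase and lyase on the way to androgens. Cyp17a1 read 254 and 254 in the PBS controls, 222 and 211 in the IL-6 controls, 415 and 234 in the Socs3-deleted PBS pair, 193 and 206 in the Socs3-deleted IL-6 pair, 229 and 207 in the Ifng-null PBS pair and 224 and 253 in the Ifng-null IFN-γ pair. Every IL-6 array was below every PBS array in the control and Socs3-deleted mice together, a mean IL-6 change of -0.44 (limma adjusted p = 0.331). This was the 1 member lower on all 4 IL-6 arrays (background 1.48%). The change was -0.64 in Socs3-deleted mice (limma adjusted p = 0.278), where one PBS array read 415, and -0.23 in control mice. Cyp11a1 encodes the side chain cleavage enzyme that opens steroid synthesis. Cyp11a1 read 50.7 and 49.2 in the PBS controls, 46.2 and 45.4 in the IL-6 controls, 50.8 and 44.2 in the Socs3-deleted PBS pair, 47.5 and 45.0 in the Socs3-deleted IL-6 pair, 51.3 and 43.7 in the Ifng-null PBS pair and 52.4 and 48.7 in the Ifng-null IFN-γ pair. All 12 readings were near the floor. Cyp21a1 encodes a hydroxylase of corticosterone synthesis. Cyp21a1 read 499.9 and 473 in the PBS controls, 499 and 467 in the IL-6 controls, 499.7 and 421 in the Socs3-deleted PBS pair, 463 and 464 in the Socs3-deleted IL-6 pair, 518 and 437 in the Ifng-null PBS pair and 448 and 358 in the Ifng-null IFN-γ pair. The lowest array was one of the IFN-γ pair, with an IFN-γ change of -0.25 (limma adjusted p = 0.869).

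Of the 3 vitamin D and retinoid genes, Cyp27b1 and Cyp26a1 were tested and Cyp24a1, which breaks down active vitamin D, stayed below the floor. Cyp27b1 encodes the enzyme that activates vitamin D. Cyp27b1 read 89.0 and 112 in the PBS controls, 93.7 and 95.2 in the IL-6 controls, 90.1 and 83.8 in the Socs3-deleted PBS pair, 97.4 and 92.8 in the Socs3-deleted IL-6 pair, 108 and 85.9 in the Ifng-null PBS pair and 93.4 and 71.5 in the Ifng-null IFN-γ pair. Its changes in the 6 pairwise comparisons lay between -0.24 and 0.13. Cyp26a1 encodes the enzyme that degrades retinoic acid. Cyp26a1 read 312 and 44.2 in the PBS controls, 42.6 and 64.5 in the IL-6 controls, 249 and 34.7 in the Socs3-deleted PBS pair, 63.2 and 49.98 in the Socs3-deleted IL-6 pair, 74.6 and 31.7 in the Ifng-null PBS pair and 54.3 and 31.7 in the Ifng-null IFN-γ pair. Replicates differed 7.19-fold in the Socs3-deleted PBS group, and the IL-6 change was -1.16 in control and -0.73 in Socs3-deleted mice (limma adjusted p = 1 and 0.946). Without replicate 1 of the PBS group of each line, the array that read 312 or 249, these changes were 0.25 and 0.70. The low arrays of both PBS pairs, 44.2 and 34.7, are those with high pancreatic signal, and the part of that signal was not tested.

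The proteins that supply electrons and haem to P450 enzymes and the receptors that control their genes were listed with earlier results of these data known. Of 15 tested partner and haem genes 0 were called in any comparison. Their changes were below 0 for 11 genes for IL-6 in controls, 13 for IL-6 in the Socs3-deleted line and 15 after IFN-γ, with medians of -0.06, -0.08 and -0.27. In the same order, Cyb5a, the gene of a cytochrome that passes electrons to P450s, had changes of -0.01, -0.03 and -0.23, and Pgrmc1, the gene of a membrane haem protein that binds P450s, had changes of -0.08, -0.07 and -0.34. Alas1, which encodes the rate-limiting enzyme of haem synthesis, read 3177 and 462 on the Socs3-deleted IL-6 arrays, and its IL-6 change in that genotype was -1.16 (limma adjusted p = 0.662). That value was 0.23 without the lower of the pair and -2.55 without the higher (limma adjusted p = 0.00783 for the latter). Alas1 was named after its values were seen.

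Of 26 tested receptors and regulators only Rora, the gene of a nuclear receptor that binds single half-sites, was called. It fell after IL-6 in Socs3-deleted mice, from a mean of 101 to 44.0 (log2 change -1.20, limma adjusted p = 0.0113), and was lower in Socs3-deleted than in control mice after IL-6 (-0.95, limma adjusted p = 0.0392). The first call ended without replicate 2 of either Socs3-deleted group, with a limma adjusted p up to 0.0947, and the second without any 1 of the 8 control and Socs3-deleted arrays, up to 0.3. Its dimmer probe set gave -0.00 and 0.02 in these comparisons and was not called. Rora was also called lower in the mean IL-6 response and in the mean of the 3 cytokine responses. Those calls too ended when certain single arrays were left out. Over the 26 genes 18 had a change below 0 after IL-6 in Socs3-deleted mice and 14 in control mice, with medians of -0.17 and -0.01. Between genotypes over both injections 20 of 26 were below 0 with a median of -0.17 and 0 called. Nr1i3, the gene of the receptor CAR, had a change of -0.60 there (limma adjusted p = 0.111), and Nr1h4, the bile acid receptor gene, one of -0.29 (limma adjusted p = 0.375). Both were named after their values were seen. Without replicate 1 of the control IL-6 group Nr1i3 passed the threshold (-0.76, limma adjusted p = 0.0273).

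Markers of other liver cells were read over the same genotype comparison. Of 12 tested Kupffer cell and macrophage markers 11 had a change above 0 between Socs3-deleted and control mice over both injections, with a median of 0.35. Cd14 was the 1 called, at 0.84 (limma adjusted p = 0.00445). The summed markers ran from 2633 to 5030 over the 12 arrays. Over the same comparison 9 of 15 hepatocyte markers were below 0, with a median of -0.03 and 0 called. All 22 acute phase genes, which the liver makes in inflammation, had a change above 0 there, with a median of 0.75 and 4 called higher (Cd14, Itih3 at 0.63, Lbp at 0.87 and Lcn2 at 3.34), and after PBS alone their median was 0.97 with 0 called. The calls of Itih3 and Lcn2 each ended when certain single arrays were left out, and that of Lbp when most single arrays were left out in turn. Over all probe sets 0.799% were called between genotypes over both injections. Of 20 interferon-inducible genes 16 were called higher after IL-6 in the Socs3-deleted line and 15 after IFN-γ. Over all probe sets 1.17% and 0.653% were called in these comparisons, in either direction. Among the called genes was Gbp2, a guanylate-binding protein gene, at 4.15 and 5.63. Its call after IL-6 ended without replicate 2 of the Socs3-deleted IL-6 group. For IL-6 in control mice 19 of the 20 had a change above 0, with 0 called. The part of these cells and genes in the P450 values was not tested.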

How the data were processed

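Liver RNA of 12 samples in 6 groups of 2 was measured on Affymetrix mouse arrays. The deposited table holds linear signal intensity values that the authors computed, and its background correction and scaling are not given in the sources used here. Per the labels, groups are genotype and injection. The values were used as deposited, floored at 33.01 (the 25th percentile) and converted to log2. The 66 control probe sets were left out, and 9641 probe sets above the floor on at least 2 arrays were tested. R 4.3.3 with limma 3.58.1 fitted 6 group means (6 residual and 3.38 prior degrees of freedom). Each two-sided test was adjusted by Benjamini-Hochberg over the 9641 probe sets.

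Every P450 gene is accounted for. Array values are given for called genes, the brightest gene of each subfamily above the floor on all arrays, 10 classical enzymes and the largest changes at an unadjusted p under 0.05. For the partner, regulator, sex-biased, hepatocyte, macrophage and acute phase lists, called genes are named, or the 2 brightest for the partner and sex-biased lists with 0 called, and others are marked. Interferon-inducible genes are given as counts with 1 example, picked after its values were seen. Members and lists were chosen with earlier results of these data known. All 40 genes matched RefSeq (GRCm38.p6) by Entrez identifier, and promoters are RefSeq's. Alternatives covered normalization, floor, filter, trend, array weights, the replicate block and leaving out arrays, with a crossed block added after seeing the data. On simulated data of IL-6 against PBS in controls, 79.7% of 2-fold changes were recovered over 9641 probe sets, and 4.94% of calls were false. Each run held 200 changed probe sets, whereas the real comparison had 0 calls. The adjusted threshold depends on how many probe sets change, so these shares do not give the power of the comparisons reported here. Only 2 arrays per group limit the precision.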

Additional observations from a re-analysis of the deposited data

Results flagged for a closer look

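For 2 P450 genes both IL-6 arrays lay on opposite sides of both PBS arrays in the 2 genotypes. Over all probe sets, both IL-6 arrays lay above both PBS arrays for 13% in control mice and 19.6% in Socs3-deleted mice. They lay below for 14.6% and 21.5%. The share of all probe sets on opposite sides in the 2 genotypes was not counted, so these 2 genes are not shown to exceed it. For Cyp7b1 the IL-6 response of Socs3-deleted mice minus that of control mice was 1.28 ± 0.35 (SE) on the log2 scale, with a limma adjusted p of 0.740 over 9641 probe sets. For Cyp3a13 it was -0.93 ± 0.25 (SE), with a limma adjusted p of 0.710. Both missed the threshold in the test of the difference itself. With 1 array left out at a time the Cyp7b1 difference ran from 0.81 to 1.76, the highest without replicate 2 of the Socs3-deleted PBS group. The Socs3-deleted PBS arrays were the lowest of 12 for Cyp7b1 and the highest of 12 for Cyp3a13.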

How the results depend on the processing

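The calls among P450 genes were recounted under 22 alternatives in each of 10 comparisons, with 23 for Ifng-null against control mice. These alternatives were run in full on the 39 gene results with an unadjusted p under 0.05, and none of those reversed direction. Over all 37 tested genes, leaving out 1 array turned the direction of 11 to 22 values in each comparison, among them Cyp26a1, Cyp7a1 and Cyp4a14 for IL-6 in controls and Cyp3a11 and Cyp51 between genotypes after PBS. Of 859 recomputed values for the 39, 832 kept their direction and their side of the threshold, 17 newly passed it and 10 no longer did. All 10 came from the 22 alternatives of the 1 called result, Cyp8b1 between genotypes over both injections. The other results were uncalled, and a value that stayed uncalled counted as kept, so the 832 is no measure of how stable a call is. In the mean of both injections between genotypes the count of 1 became 0 with no filter and 0 without both arrays with high Prss2. Leaving out 1 array gave 0 to 1. Without replicate 2 of the Socs3-deleted PBS group the count of 1 was Cyp7b1 (-0.87, limma adjusted p = 0.0125), with Cyp8b1 at 0.0658. After IL-6 between genotypes the count of 0 became 1, Cyp8b1, with quantile normalization (limma adjusted p = 0.0189), a filter of at least 6 arrays (0.0404), an intensity trend with robust fit (0.0403) and array weights (0.011). Leaving out 1 array gave 0 to 1 there, and the 1 was Cyp2b9 (-0.87, limma adjusted p = 0.0237) without replicate 1 of the control IL-6 group and Cyp8b1 without any 1 Ifng-null array. In Socs3-deleted mice the IL-6 count was 1, Cyp7b1, without both arrays with high Prss2 (limma adjusted p = 0.0374), and leaving out 1 array gave 0 to 2. The 2 were Cyp7b1 (1.36) and Cyp17a1 (-1.06, limma adjusted p = 0.0213), without replicate 2 of the Socs3-deleted PBS group. Leaving out 1 array gave 0 to 1 for the difference of IL-6 responses, for genotypes after PBS, for the mean IL-6 response and for the mean of 3 cytokine responses. These counts of 1 came without that same array, and for the cytokine mean also without replicate 2 of the control IL-6 group (Cyp7a1, -1.22, limma adjusted p = 0.0478). Where 1 array of a group is left out, the mean of that group rests on the other array alone. The causes were not tested.

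The replicate number as a block took the count after IL-6 between genotypes from 0 to 1 (Cyp8b1, limma adjusted p = 0.0455) and changed no other P450 call. Same-numbered arrays deviated together with r from -0.112 to 0.665 over 6 pairs of groups, and with 2 numbers per group they share only a number. The crossed block for Ifng-null against control mice, chosen after seeing the data, gave 0 P450 calls.

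The counts over all probe sets, which serve as the background, ranged over the alternatives from 1 to 160 for IL-6 in Socs3-deleted mice (113 as reported), 8 to 71 for IFN-γ (63), 0 to 223 for genotypes after IL-6 (92), and 8 to 142 for genotypes over both injections (77). For control mice after IL-6 they ran from 0 to 8, and for genotypes after PBS from 0 to 7. The 2 arrays per group limit what single genes can show.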

Other observations

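Within the Socs3-deleted IL-6 pair, replicate 1 read lower than replicate 2 for Cyp2a12 (849 and 1614), Cyp2d10 (3565 and 5649) and Cyp4a12b (969 and 1928). Other P450 genes read higher on replicate 1, among them Cyp2e1 (8820 and 8279), Cyp4v3 (2773 and 2418) and Cyp1a2 (2417 and 1993), so the P450 genes did not differ in one direction. Replicate 1 also read higher for Alas1, which supplies haem (3177 and 462), and for the receptor gene Ppara (424 and 95.4). These genes were picked after their values were seen.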
